A study of Mus musculus with 36 samples.

Results

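Mef2c lies on mouse chromosome 13 and is one of the 3 transcription factor genes, with Gata4 and Tbx5, that were delivered to fibroblasts in this series to turn them into heart muscle-like cells. ATAC-seq reports open chromatin, because its transposase inserts sequencing adapters where DNA is free of nucleosomes. The Mef2c locus was taken as every region of the deposited count table, in mm9 coordinates, that overlapped a window of 230.0 kb on chromosome 13. The window runs from 43.0 kb before the approximate start of the gene to 23.3 kb after its approximate end, and the span between these ends is 163.7 kb. It held 278 of the 1393120 regions of the table. The filter on low counts kept 144810 regions of the table (10.4%), and 40 of them were in the locus. A total of 7 regions were set apart because their mean at day 2 was at least 10 CPM (counts scaled to 1000000 counts of effective library size) and at least 4 times their mean in control fibroblasts, and all 7 passed the filter. The rest divided into 33 other regions that were tested and 238 that were too low. The values of day 2 and of fibroblasts chose the 7 regions, so differences that involve either group are given for them as descriptions with no test.

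All groups came from neonatal hearts of Cd-1 mice that carry an alpha-MHC-GFP reporter, in which green fluorescence follows the promoter of a cardiac myosin gene. Explanted cells that were Thy1-positive and GFP-negative, largely fibroblasts per the labels, received retroviruses for Gata4, Mef2c and Tbx5 (GMT) together with sb431542 and xav939, which inhibit TGF-beta and Wnt signalling, and GFP-positive cells were sorted at days 2, 3, 7, 14 and 21. Control fibroblasts carried a dsRed retrovirus, had no inhibitor and were collected as dsRed-positive cells at day 7. Each of the 6 groups had 3 libraries, described as biological replicates. Factors, inhibitors and gate all differ between GMT cells and fibroblasts, as does the time since infection at every day but day 7, and they cannot be told apart. GMT cells were selected by a reporter driven by a cardiac promoter, so they stand for the reporter-positive cells and not for all infected cells. The identity of the cells was not checked against marker genes, because no region was assigned to a gene without an annotation of mm9.

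Libraries held 2293128 to 23217308 counts. A single region of chromosome 1 held 4.52 to 49.4% of them, and CPM values therefore use effective library sizes from edgeR's trimmed mean of log ratios. Day 2 replicate 1 and day 3 replicate 1 stood apart on the second principal component, at -262 and -241 against -33.4 to 81.4 for the remaining libraries. Day 14 replicate 3 stood apart on the third. Without that pair, the calls at day 3 over fibroblasts given below for the other regions were 5 higher and 3 lower. Over all 181081 regions then tested they were 22310 higher and 11763 lower. Without day 14 replicate 3, the calls of the other regions at day 14 over fibroblasts were 3 higher and 3 lower. Over all 199644 regions then tested they were 20407 higher and 11598 lower.

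MEF2C is a MADS-box transcription factor that binds AT-rich sites and switches on genes of the contractile apparatus. In the mouse embryo it is needed for looping of the heart tube and for the right ventricle, and it also acts in skeletal muscle, nerve cells and lymphocytes. A retrovirus carries the coding sequence of such a factor without introns and inserts it into the chromosomes of the host cell. A read that falls wholly within coding sequence has the same letters whether it was cut from the inserted copy or from an exon of the resident gene, so counts over exons cannot be told apart by source in a table of counts. Promoters and introns of the resident gene are not part of a coding sequence. Positions of the exons in mm9 were not used here, and no region below is called exonic or intronic.

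RefSeq lists 3 transcription starts for Mef2c (gene ID 17260) in build GRCm38.p6, which is not the build of the count table. The 300 bases around each, 250 before and 50 after, are shown because they are sequence that a delivered coding sequence would lack, and capitals mark the match found by a motif search.
Mef2c start 1, chr13:83503784-83504083, plus strand: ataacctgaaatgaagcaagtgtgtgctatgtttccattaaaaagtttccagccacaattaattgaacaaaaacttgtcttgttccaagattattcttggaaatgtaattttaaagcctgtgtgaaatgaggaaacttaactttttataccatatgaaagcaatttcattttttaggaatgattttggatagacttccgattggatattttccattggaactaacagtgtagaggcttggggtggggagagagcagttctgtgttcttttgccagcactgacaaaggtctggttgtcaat
Mef2c start 2, chr13:83523406-83523705, plus strand: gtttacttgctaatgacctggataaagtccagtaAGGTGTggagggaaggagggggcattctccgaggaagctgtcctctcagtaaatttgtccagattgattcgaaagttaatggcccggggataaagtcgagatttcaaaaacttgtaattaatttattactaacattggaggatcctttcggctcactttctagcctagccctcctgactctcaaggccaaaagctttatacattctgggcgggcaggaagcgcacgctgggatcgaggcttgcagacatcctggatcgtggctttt
Mef2c start 3, chr13:83573357-83573656, plus strand: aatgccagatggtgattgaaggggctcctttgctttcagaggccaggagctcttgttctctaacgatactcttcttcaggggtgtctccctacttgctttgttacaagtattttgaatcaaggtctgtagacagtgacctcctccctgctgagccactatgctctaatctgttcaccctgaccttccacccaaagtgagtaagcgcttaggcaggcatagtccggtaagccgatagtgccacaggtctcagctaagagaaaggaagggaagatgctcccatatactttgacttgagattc
The second start lies 19.6 kb and the third 69.6 kb after the first in that build. Both strands were searched for the MEF2 motif, for the GATA motif (AGATAA or AGATAG or TGATAA or TGATAG) and for AGGTGT, the core of T-box sites, and the motifs do not overlap in the match found. The single match was AGGTGT before the second start, a sequence that 13.7% of 32851 promoters of this length hold, while 29.8% hold the GATA motif and 3.19% the MEF2 motif. The builds were not matched to each other, and no region of the table was assigned to a start.

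The 7 set-apart regions are numbered by position. Region 1 is chr13:83730819-83732353, region 2 is chr13:83764596-83765336, region 3 is chr13:83772366-83773128 and region 4 is chr13:83790862-83792767. Region 5 is chr13:83794019-83795345, region 6 is chr13:83795713-83796137 and region 7 is chr13:83800334-83802523, with starts and ends as in the deposited table. All 7 lie inside the approximate span of the gene, beginning 87.8 kb after its start, in a stretch of 71.7 kb. That stretch holds 71 further regions, of which 11 were tested, so low and high regions alternate along it. The 7 were 424 to 2189 bases wide. None of the 7 begins within the first 87.8 kb of the gene, where the tested regions of highest level at day 2 stood at 14.3, 13.8 and 12.9 CPM. The plot of mean counts along the locus shows this arrangement.

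**Figure D1:**
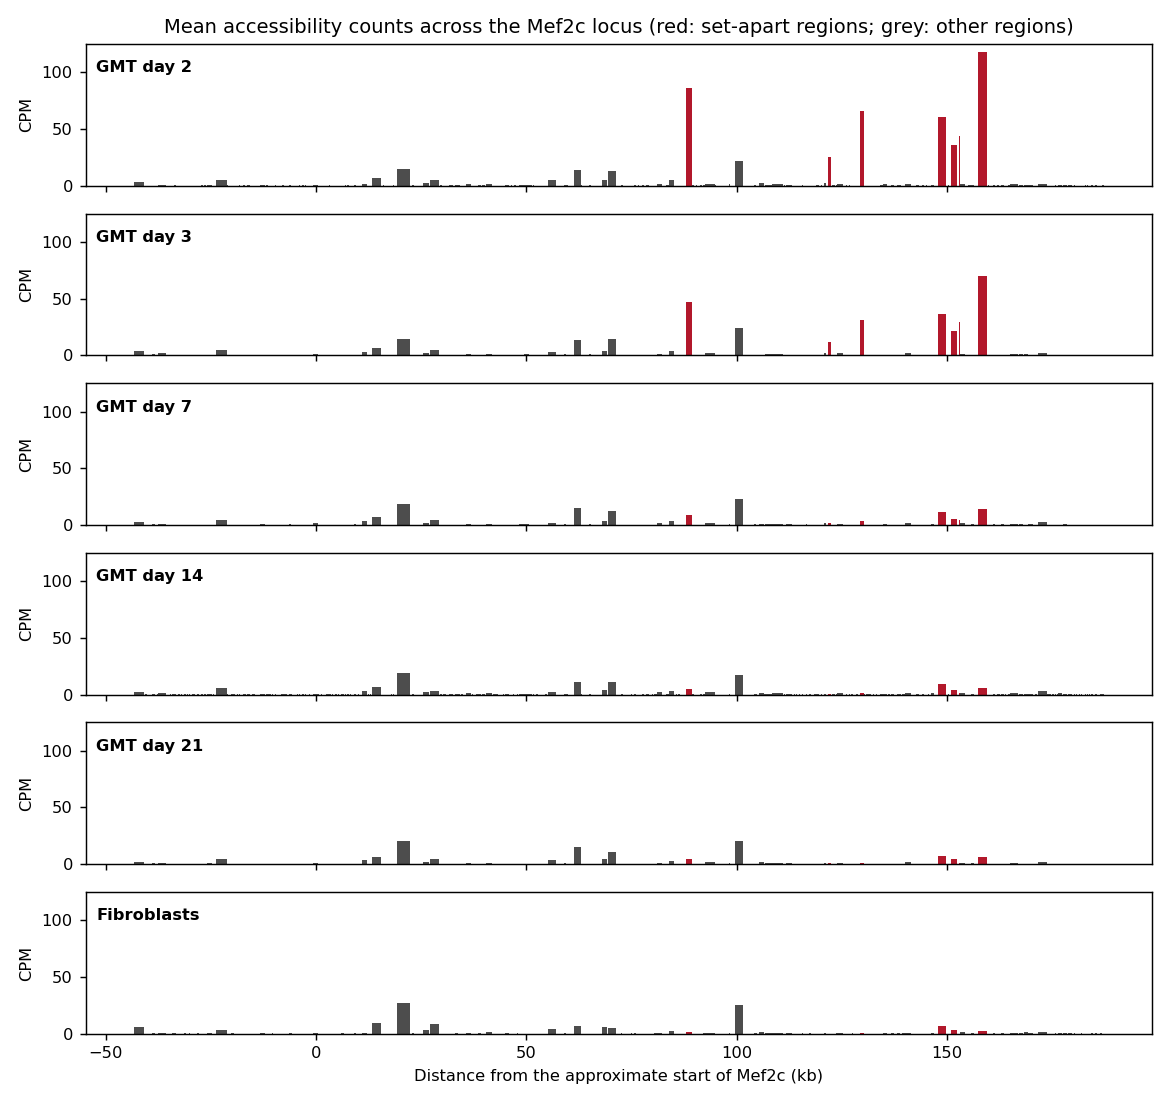
Mean CPM of every region of the locus (y axis, linear) against distance from the approximate start of Mef2c in kb (x axis), one panel per group of 3 libraries, with set-apart regions in red and the others in grey. The 7 red bars stand at 25.1 to 118 CPM in GMT cells at day 2 and at 0.168 to 7.07 CPM in fibroblasts, and the grey bars reach 22.0 CPM in GMT cells at day 2 and 27.4 CPM in fibroblasts.

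Region 7 had the highest mean counts of the locus at days 2 and 3, and at day 7 its mean was below those of 3 other regions. It stood at 72.4, 181 and 101 CPM in the day 2 libraries, 49.1, 121 and 38.9 CPM at day 3, 17.96, 11.6 and 12.2 CPM at day 7, 6.81, 4.33 and 5.46 CPM at day 14 and 4.57, 5.54 and 7.82 CPM at day 21, against 3.01, 1.62 and 1.80 CPM in fibroblasts. Every GMT library was above every fibroblast library, day 2 and day 3 overlapped, and all day 7 libraries were below all day 3 libraries. Region 1 followed with means of 85.9 ± 40.7, 46.8 ± 24.3, 9.08 ± 3.74, 4.63 ± 1.14 and 4.29 ± 0.627 CPM at days 2, 3, 7, 14 and 21, against 1.71 ± 0.229 CPM in fibroblasts (SD, n = 3 each). Region 3 gave 65.7 ± 37.3, 31.0 ± 19.0, 3.70 ± 2.00, 1.64 ± 0.294 and 1.33 ± 0.193 CPM at those days, against 0.620 ± 0.429 CPM in fibroblasts (SD, n = 3 each). In both regions the day 21 libraries also lay above all fibroblast libraries.

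Region 6, with 424 bases the narrowest, had the highest level per length, 103 CPM per kb at day 2, where the others had 27.1 to 86.3 CPM per kb. Its libraries gave 42.3, 53.3 and 35.0 CPM at day 2, 26.6, 49.0 and 12.0 CPM at day 3, 6.34, 2.51 and 3.28 CPM at day 7, 1.92, 1.55 and 1.43 CPM at day 14 and 1.00, 0.615 and 1.20 CPM at day 21, against 0.547, 0 and 0 CPM in fibroblasts. The fibroblast level rests on 6 reads in 1 library, so its ratio of 239 at day 2 is imprecise. Only 42 bases further on, the next region, chr13:83796179-83797341, had 1.34 CPM per kb at day 2 and 1.08 CPM per kb in fibroblasts. The edge of region 6 therefore separates neighbours that differ greatly in count at day 2. Region 2 had 24.7, 37.2 and 13.4 CPM at day 2 and 2.24, 0.799 and 0.796 CPM at day 7, against 0.274, 0.231 and 0 CPM in fibroblasts, the last from 3, 1 and 0 reads.

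Regions 4 and 5 had the highest levels per length in fibroblasts. Region 4 had 48.3, 89.4 and 44.8 CPM at day 2, 29.8, 59.2 and 20.3 CPM at day 3, 14.2, 8.91 and 10.7 CPM at day 7, 9.92, 5.41 and 13.1 CPM at day 14 and 7.80, 9.54 and 5.14 CPM at day 21, against 8.21, 5.78 and 7.21 CPM in fibroblasts. Region 5 had 36.0 ± 9.18, 21.5 ± 12.6, 5.49 ± 1.29, 4.44 ± 0.782 and 4.14 ± 0.568 CPM at days 2, 3, 7, 14 and 21, against 3.55 ± 0.346 CPM in fibroblasts (SD, n = 3 each). At days 14 and 21 the GMT libraries of both regions overlapped the fibroblast libraries, whereas in the other 5 regions every day 21 library was above every fibroblast library. Per length, fibroblasts had 3.71 CPM per kb in region 4 and 2.67 CPM per kb in region 5, and 0.227 to 1.11 CPM per kb in the other 5.

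**Figure D2:**
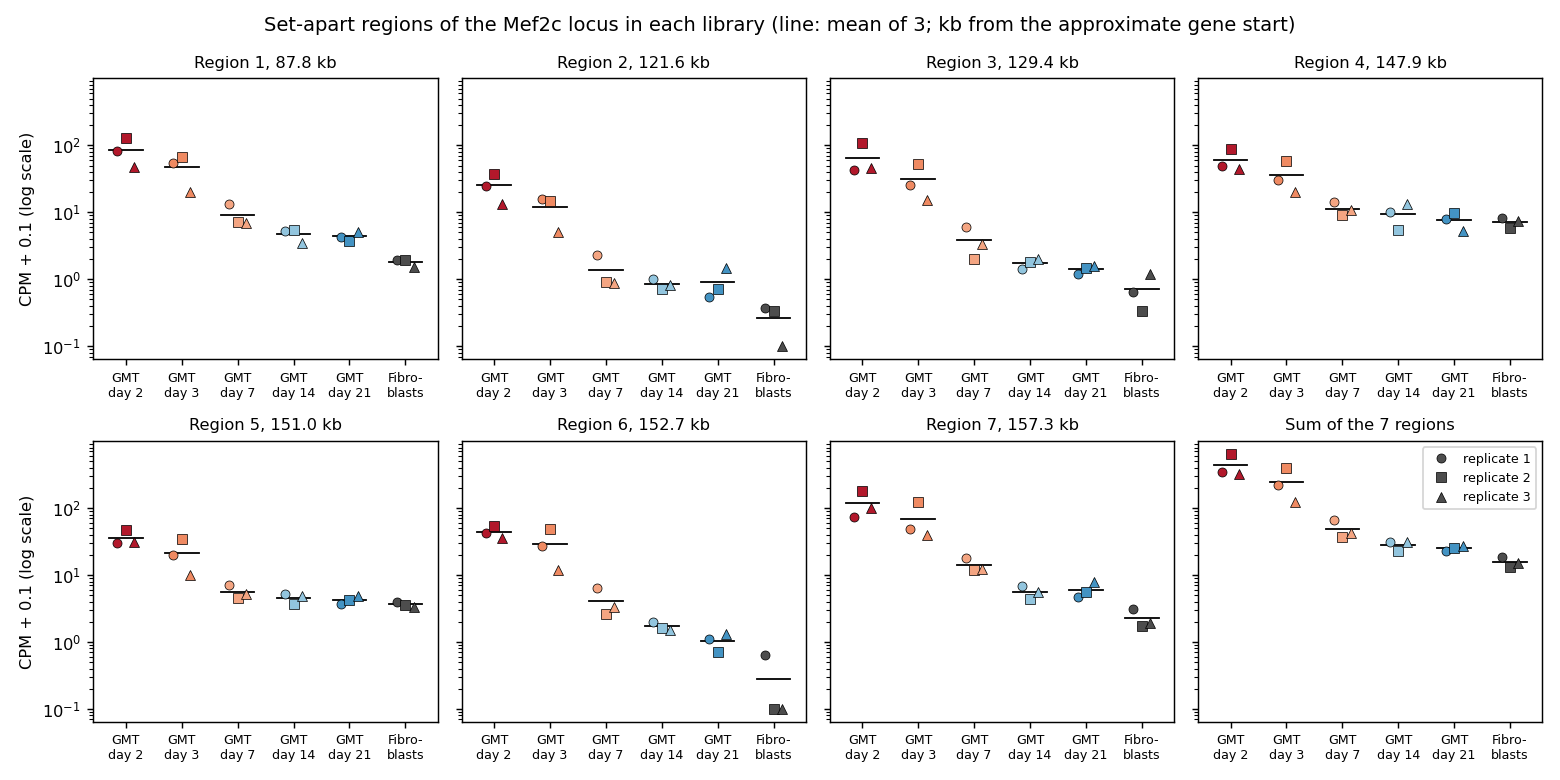
CPM plus 0.1 on a log axis for each of the 7 set-apart regions and for their sum, by library, with GMT days 2 to 21 left of fibroblasts, marker shapes for replicates 1, 2 and 3, and a line at the mean of 3. Day 21 markers overlap those of fibroblasts in regions 4 and 5 and lie above them in the other 5.

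The rule left a wide margin in the ratio of day 2 to fibroblasts, among regions that reached 10 CPM at day 2. The margin in day 2 level was narrow. The lowest day 2 level among the 7 was 25.1 CPM in region 2, and the lowest ratio of day 2 to fibroblasts was 8.61 in region 4. Outside the rule, 4 regions reached 10 CPM at day 2, with up to 22.0 CPM and ratios of 2.69, 2.13, 0.871 and 0.521. The highest ratio among the tested regions left out was 3.98, in a region with 1.46 CPM at day 2. The 238 regions too low to test were not searched for ratios, and none of them averaged above 0.840 CPM at day 2.

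Mean counts in all 7 set-apart regions were lower at day 7 than at day 3, and the fall was called in 6. This is a comparison between libraries the rule did not use, although the locus was chosen with this fall already known. With edgeR's quasi-likelihood test and Benjamini-Hochberg adjustment over all 144810 regions, 6 of the 7 were lower at day 7 than at day 3, when 0.00691% of all tested regions (10 regions) were. Those 10 were made up of the 6, of 2 regions at Gata4 and of 2 elsewhere. The median log2 fold change of the 7 was -2.34, from -3.03 to -1.68, against -0.01 over all regions. In each of the 7 all day 7 libraries were below all day 3 libraries. How many of all tested regions separate fully between groups is not given, here or for the separations described elsewhere, so these are descriptions. The share of cells that carry counts in the 7 regions and the count per cell cannot be told apart in bulk libraries.

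The steepest falls to day 7 were in region 2 (log2 fold change -3.03, SE 0.44, adjusted p = 0.00228), region 3 (-3.02, SE 0.39, adjusted p = 0.000105) and region 6 (-2.80, SE 0.37, adjusted p = 0.000151). Region 2 passed the filter on low counts only through its day 2 and day 3 libraries. Its falls from day 3, here and at day 21 below, were therefore tested on a region kept by its high groups. Regions 1 and 7 changed by -2.34 (SE 0.36, adjusted p = 0.000311) and -2.32 (SE 0.36, adjusted p = 0.000389), and region 5 by -1.94 (SE 0.31, adjusted p = 0.000629). Region 4 gave -1.68 (SE 0.34) with an adjusted p of 0.0576 and was not called. Regions 4 and 5, the pair with the highest fibroblast levels, thus had the smallest estimates. Without day 2 replicate 1 and day 3 replicate 1, 2 of the 7 were called, regions 5 and 7, among 11 of 181081 regions called lower. Without day 7 replicate 2 also 2 were called, among 4 of 145768, while all 7 estimates stayed negative. DESeq2 called all 7, among 11 of 144810.

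By day 21 all 7 regions were below day 3 in the same fit (log2 fold changes -4.83 to -2.31, median -3.52, adjusted p 9.88e-09 to 0.000104), when 0.249% of all tested regions were lower. Region 6 changed most (-4.83, SE 0.44), which was the lowest of all 144810 estimates, and region 3 was next (-4.50, SE 0.44). Regions 4 and 5 changed by -2.31 (SE 0.35) and -2.35 (SE 0.32). No call was lost under the alternatives run, including the fit without the 2 libraries that stood apart.

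Between day 7 and day 21 no set-apart region was called in edgeR or DESeq2. In edgeR 4 of the 7 had an unadjusted p under 0.05, as did 8167 of all 144810 tested regions. All 7 estimates were negative (-2.03 to -0.40). Of all tested regions 0.00552% were called lower, none of them in the locus. The largest change was in region 6 (-2.03, SE 0.45, adjusted p = 0.235), with 1.00, 0.615 and 1.20 CPM at day 21 and 6.34, 2.51 and 3.28 CPM at day 7. Its adjusted p over the alternatives ran from 0.0384 to 1, the lowest without day 3 replicate 3. For day 14 over day 7 and for day 21 over day 14, edgeR and DESeq2 called 0 set-apart regions (0.0% of all tested regions in edgeR). At an unadjusted p under 0.05 in edgeR were 4 and 0 of the 7, and 10373 and 4757 of all 144810 tested regions. Day 3 over day 2 shares the libraries of the rule and is described only. Ratios of the means ran from 0.472 to 0.671, and the libraries of both days overlapped in all 7.

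Summed over the 7 regions, counts were 343, 644 and 319 CPM at day 2, 220.2, 398 and 121 CPM at day 3, 66.9, 37.3 and 42.2 CPM at day 7, 31.1, 22.6 and 30.6 CPM at day 14 and 22.7, 25.5 and 26.7 CPM at day 21, against 18.3, 13.2 and 14.8 CPM in fibroblasts. Every GMT library exceeded every fibroblast library, also at day 21. The mean at day 2 was 28.2 times that of fibroblasts, at day 7 it was 3.16 times and at day 21 it was 1.62 times. As a share of all counts of the locus, the 7 regions took 71.0% at day 2, 57.4% at day 3, 23.7% at day 7, 15.7% at day 14 and 13.3% at day 21, against 8.66% in fibroblasts.

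Libraries of the same day kept a common order in the 7 regions at some days and not at others. Day 2 replicate 2 was the highest of its group in all 7, day 7 replicate 1 was the highest in all 7, and day 3 replicate 3 was the lowest in all 7. At day 14 the highest library was replicate 1 in 4 regions, replicate 2 in 1 and replicate 3 in 2, and at day 21 the lowest was replicate 1 in 4, replicate 2 in 2 and replicate 3 in 1. Across the 18 libraries, Pearson correlations of log2 CPM between pairs of the 7 had a median of 0.965 (0.911 to 0.987), against a median of 0.0706 (-0.704 to 0.876) between pairs of the 33 other tested regions. These points share their library, their depth and their group, and the day 2 and fibroblast values that chose the 7 are among them.

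The mix of the 7 changed with time while their sum declined. Regions 4 and 5 together held 22.6% of the sum at day 2 (21.1 to 23.8% over libraries), 23.7% at day 3 (22.4 to 25.0%), 34.9% at day 7 (31.6 to 37.5%), 48.7% at day 14 (39.7 to 58.1%) and 46.8% at day 21 (36.9 to 53.6%), against 69.0% in fibroblasts (66.2 to 70.7%). Days 2 and 3 overlapped, all day 7 libraries lay above both, and all fibroblast libraries lay above every GMT library. Regions 4 and 5 were singled out as those with the highest fibroblast levels per length. Their high share in fibroblasts, and the contrast with the other 5 against fibroblasts, therefore follow in part from that choice. In CPM, regions 4 and 5 averaged 96.8, 57.9, 16.8, 13.9 and 11.6 at days 2, 3, 7, 14 and 21, against 10.6 in fibroblasts, and the other 5 averaged 338, 189, 32.1, 14.2 and 13.4 at those days, against 4.82 in fibroblasts. At day 21 the pair overlapped the fibroblasts, with libraries of 9.84 to 13.7 CPM against 9.25 to 12.1 CPM in fibroblasts. The other 5 did not, with 11.4 to 16.8 CPM against 3.93 to 6.202 CPM in fibroblasts.

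**Figure D3:**
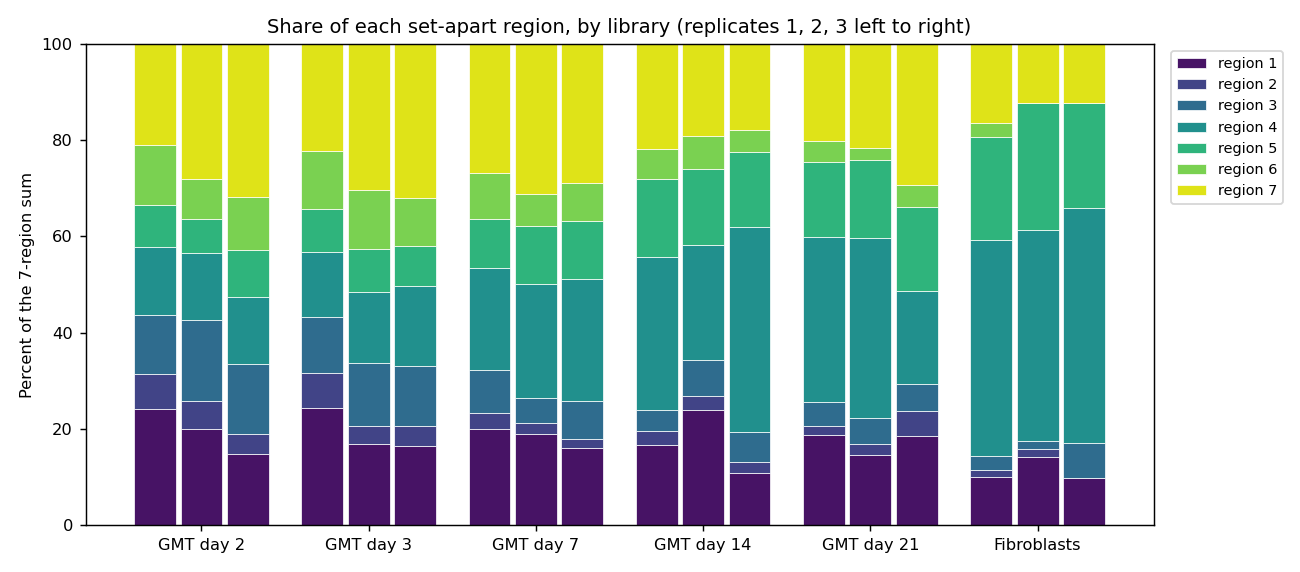
Percent of the summed CPM of the 7 set-apart regions taken by each region (stacked, y axis), one bar per library, with GMT days 2 to 21 left of fibroblasts. Regions 4 and 5 together take 21.1 to 23.8% at day 2, 36.9 to 53.6% at day 21 and 66.2 to 70.7% in fibroblasts.

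The other regions of the locus, tested and untested together, had a sum with no such course. Their sum was 163 ± 15.7 CPM at day 2, 161 ± 19.8 at day 3, 154 ± 6.73 at day 7, 152 ± 7.93 at day 14 and 163 ± 20.2 at day 21, against 163 ± 20.8 CPM in fibroblasts (SD, n = 3 each). Libraries ran from 140.2 to 186 CPM, and every GMT group overlapped the fibroblasts. This rests on the scaling, since with library totals the sums were 188 CPM at day 2, 138 CPM at day 7 and 184 CPM at day 21, against 129 CPM in fibroblasts. The 238 regions too low to test made up 36.7 CPM of the day 2 sum and 38.5 CPM of the fibroblast sum, with no mean of a region above 0.955 CPM in any group. Among the 33 tested, none was called for day 7 over day 3 or for day 21 over day 7 in edgeR or DESeq2. At an unadjusted p under 0.05 in edgeR were 3 and 2 of the 33, and 9196 and 8167 of all 144810 tested regions. The share of all tested regions called in either direction was 0.00829% for day 7 over day 3 and 0.00552% for day 21 over day 7, so a count of 0 among 33 is near the background.

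**Figure D4:**
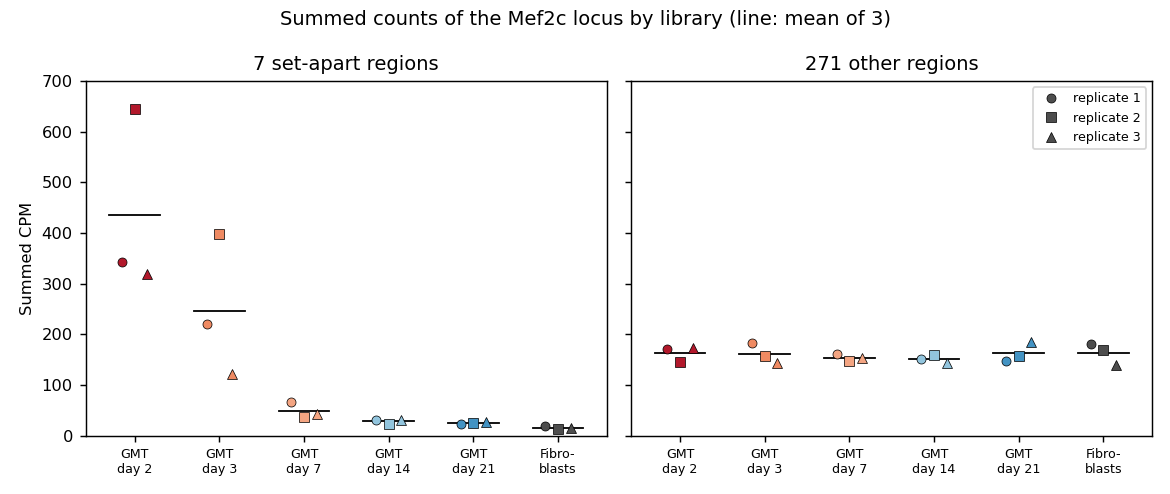
Summed CPM per library (y axis from 0, linear) of the 7 set-apart regions (left) and of all other regions (right), with GMT days 2 to 21 left of fibroblasts and a line at the mean of 3. In the left panel the means are 435 CPM at day 2, 48.8 at day 7 and 25.0 at day 21, next to 15.4 in fibroblasts, and the right panel stays between 140.2 and 186 CPM.

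Within that sum, single regions differed from fibroblasts in both directions. At day 7, the day at which fibroblasts were also sorted, 4 of the 33 were higher and 6 lower (30.3%), when 15.5% of all tested regions were higher and 12.0% lower, 27.5% in all. At day 3 there were 5 higher and 4 lower (27.3%), against 13.2% and 8.84% of all tested regions (22.0%). At day 14 there were 4 higher and 3 lower (21.2%), against 12.8% and 9.7% (22.5%). At day 21 there were 4 higher and 2 lower (18.2%), against 13.3% and 10.1% (23.4%). These shares are near the background. The 4 comparisons use the same fibroblast libraries, and the rule had already removed the regions that were high at day 2 relative to fibroblasts. Of the 33, 8 were higher at 1 or more of these days (24.2%, against 20.0% of all tested regions), 7 were lower at 1 or more (21.2% against 16.2%) and 18 were neither (54.5% against 63.7%). None was both, as was true of all but 0.000691% of the tested regions. Library totals as the scaling shift the median log2 difference of all regions by 0.51, 0.30, 0.58 and 0.66 at days 3, 7, 14 and 21. The day 7 calls then became 4 higher and 1 lower, and those at days 3, 14 and 21 became 9, 7 and 8, all higher. Over all 144810 tested regions that scaling called 30162 higher and 3927 lower at day 3 and 25859 and 8085 at day 7. It called 30923 and 5311 at day 14 and 36847 and 4639 at day 21.

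The region at the approximate start of the gene, chr13:83642326-83643334, was low and was called higher at day 7. It had 0.960, 0.462 and 0.611 CPM at day 2, 1.05, 1.07 and 1.25 CPM at day 3, 1.39, 1.26 and 1.29 CPM at day 7, 0.859, 1.39 and 0.238 CPM at day 14 and 0.892, 0.923 and 1.54 CPM at day 21, against 0.547, 0.463 and 0 CPM in fibroblasts. All day 3, day 7 and day 21 libraries were above all fibroblast libraries, while days 2 and 14 overlapped them. Day 7 gave a log2 fold change of 1.59 (SE 0.60, adjusted p = 0.0379) on 21, 11 and 13 reads against 6, 2 and 0 in fibroblasts. The call was lost in 8 of 24 alternatives, among them DESeq2 and the omission of any day 7 or fibroblast library, with adjusted p between 0.0165 and 0.0915.

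A total of 3 regions in the first 71.2 kb of the gene were higher than in fibroblasts at days 3, 7, 14 and 21 alike (9.09% of the 33, against 8.33% of all tested regions). The region chr13:83704279-83706042 had 14.1, 15.4 and 15.6 CPM at day 7 and 11.5, 14.6 and 18.9 CPM at day 21, against 7.11, 6.25 and 6.13 CPM in fibroblasts, and all 15 GMT libraries lay above the 3 fibroblast libraries. Its log2 fold change over fibroblasts was 1.19 (SE 0.29, adjusted p = 0.00126) at day 7 and 1.20 (SE 0.29, adjusted p = 0.00135) at day 21. The region chr13:83712342-83714193 had 12.7, 9.94 and 13.03 CPM at day 7, against 6.84, 3.24 and 4.32 CPM in fibroblasts (log2 fold change 1.22, SE 0.31, adjusted p = 0.00167), and its estimate was 1.46 at day 3 and 1.06 at day 21. The region chr13:83653972-83654992 had 2.64, 3.77 and 3.58 CPM at day 7 and 2.90, 2.15 and 5.38 CPM at day 21, against 1.28, 1.39 and 0.360 CPM in fibroblasts (1.52, SE 0.44, adjusted p = 0.00661 at day 7, and 1.69, SE 0.44, adjusted p = 0.00236 at day 21). Its day 2 libraries, at 0.640, 1.23 and 2.44 CPM, overlapped those of fibroblasts. The weakest of these calls were at day 14 for 83704279 (0.80, adjusted p = 0.0425), lost in 10 of 24 alternatives, and for 83653972 at day 3 (1.25, adjusted p = 0.0401), lost in 6, and at day 14 (1.37, adjusted p = 0.0222), lost in 5.

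A total of 2 regions were lower at all 4 of these days (6.06% of the 33, against 5.49% of all tested regions). Outside the gene, chr13:83599685-83602116 had 1.98, 3.88 and 2.19 CPM at day 7, against 4.93, 7.63 and 5.40 CPM in fibroblasts (-1.17, SE 0.34, adjusted p = 0.00693), and -1.41 (SE 0.35, adjusted p = 0.00143) at day 21. The region chr13:83669953-83672126 had 6.34, 3.54 and 3.08 CPM at day 7, against 10.7, 8.10 and 6.13 CPM in fibroblasts (-0.97, SE 0.29, adjusted p = 0.00790), where 1 day 7 library lay within the fibroblast range. The call for 83599685 at day 3 (-0.93, adjusted p = 0.0429) was lost in 14 of 24 alternatives, with adjusted p up to 0.847, and that for 83669953 at day 21 (-0.91, adjusted p = 0.0144) was lost in 8, with adjusted p up to 0.830. Beyond the gene end, chr13:83811194-83812254 fell most at day 7, to 0.330, 0.457 and 0.199 CPM, against 1.64, 1.85 and 1.08 CPM in fibroblasts (-2.24, SE 0.63, adjusted p = 0.00455). The remaining falls at day 7 were smaller, with log2 fold changes of -1.14 at chr13:83698171-83699901 (adjusted p = 0.0127), -1.02 at chr13:83710894-83712189 (adjusted p = 0.0106) and -0.997 at chr13:83668278-83669810 (adjusted p = 0.0394). Of the 6 falls at day 7, all but that at 83811194 were lost with library totals as the scaling, and that at 83668278 was lost in 16 of 24 alternatives.

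Neighbouring regions could differ in opposite directions. At day 7 the region that was lower at 83710894 ends 153 bases before the one that was higher at 83712342. The first had 2.90, 3.88 and 3.18 CPM, against 7.94, 8.10 and 2.88 CPM in fibroblasts. Fibroblast replicate 3 lay below all day 7 libraries there, so the groups overlapped, while in the second region every day 7 library was above every fibroblast library.

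Of the 3 other regions with the highest levels over all libraries, chr13:83704279-83706042 is described above, and the remaining pair were not called at day 7. The region chr13:83742641-83744555 had 22.8, 18.5 and 26.3 CPM at day 7, against 25.8, 27.3 and 22.7 CPM in fibroblasts (-0.17, SE 0.30, adjusted p = 0.711). The region chr13:83662179-83665411 had 10.6, 14.1 and 18.1 CPM at day 2, 10.3, 18.3 and 15.6 CPM at day 3, 18.4, 16.7 and 19.6 CPM at day 7, 19.6, 22.9 and 13.3 CPM at day 14 and 19.1, 17.7 and 24.1 CPM at day 21, against 28.8, 25.9 and 27.4 CPM in fibroblasts. All 15 GMT libraries were below all fibroblast libraries, but it was called at day 3 (-0.87, SE 0.29, adjusted p = 0.0236) and not at day 7 (-0.59, SE 0.29, adjusted p = 0.123), and the call at day 3 was lost in 14 of 24 alternatives. That call and the following 4 are named after their values were seen. Single rises against fibroblasts were called at 83763656 (log2 fold change 1.52, adjusted p = 0.0236) and 83766927 (1.44, adjusted p = 0.0334) at day 3, at 83619098 (0.92, adjusted p = 0.0338) at day 14 and at 83735473 (1.57, adjusted p = 0.0249) at day 21. The pair at day 3 lies on either side of region 2, which begins 384 bases after the first of them ends.

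**Figure D5:**
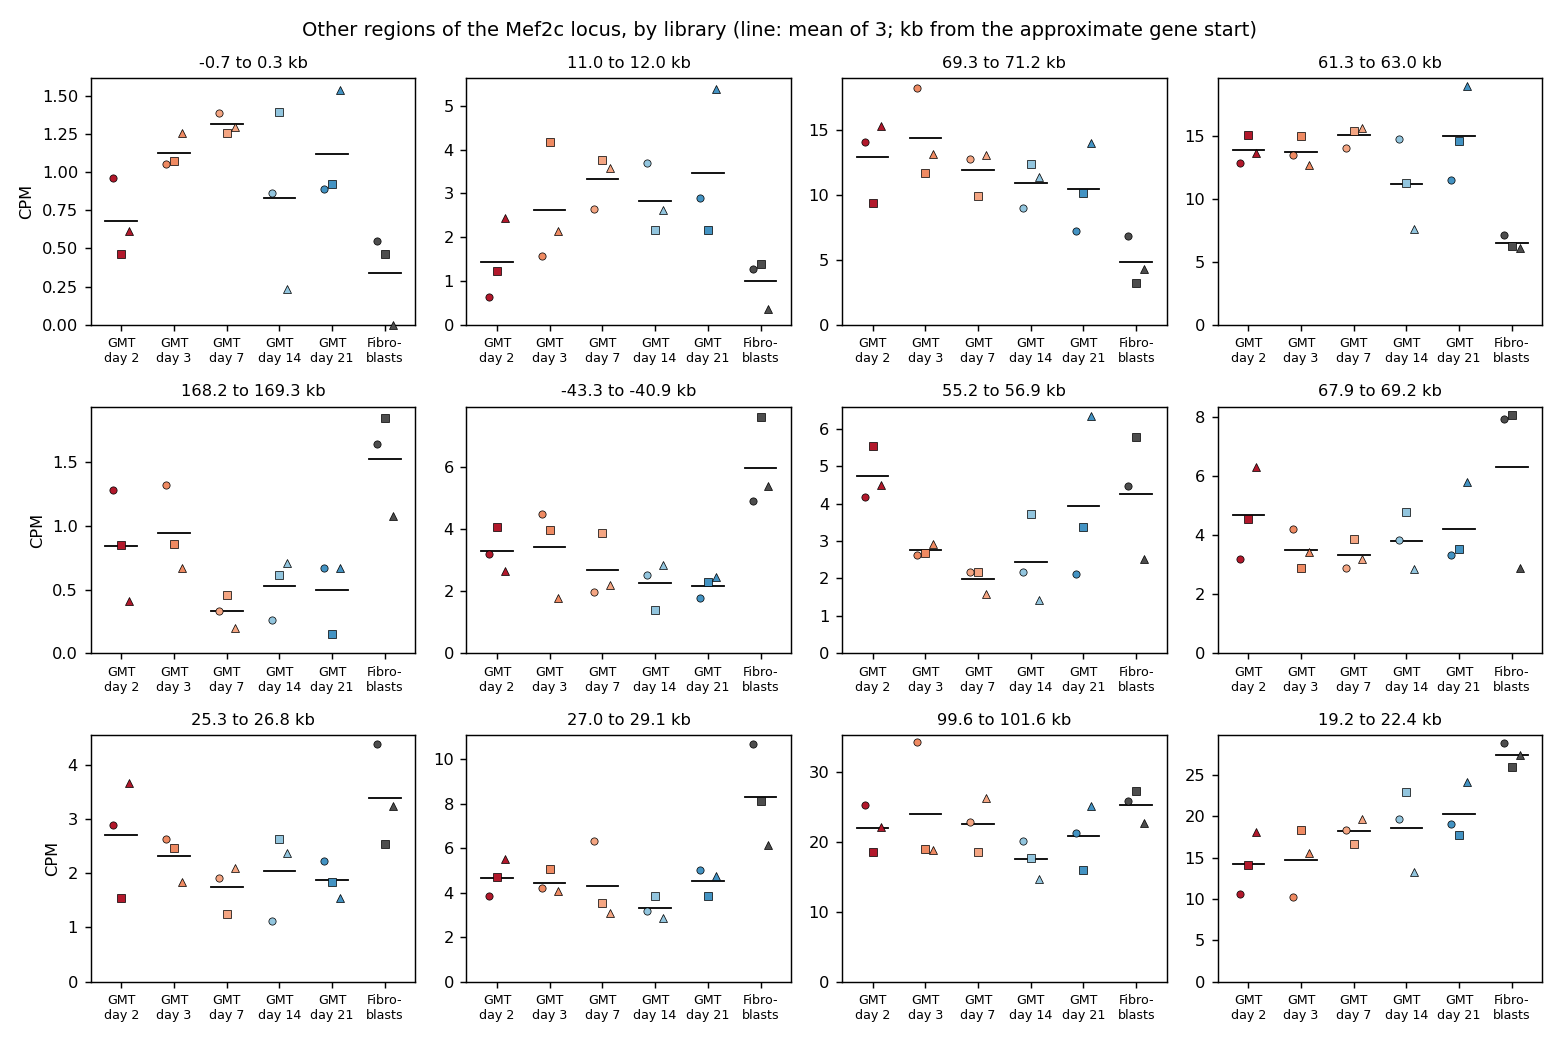
CPM by library (y axes from 0, linear, one scale per panel) of the 12 other regions named by rule, with GMT days 2 to 21 left of fibroblasts, marker shapes for replicates 1, 2 and 3, and a line at the mean of 3. Panel titles give the distance from the approximate start of Mef2c, and the region at 61.3 to 63.0 kb has all GMT libraries above 7.11 CPM, the highest fibroblast value.

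The search for similar regions took in 61021 that averaged 1 or more in log2 CPM, and those whose log2 CPM followed the summed set-apart regions most closely over the 18 libraries were compared by Pearson correlation. Of the first 5, 3 lie at Gata4, the delivered factor on chromosome 14. They are chr14:63822054-63822711 (r = 0.981), chr14:63819108-63820631 (r = 0.940) and chr14:63823062-63825062 (r = 0.919), and the other pair is chr11:100188064-100189602 (r = 0.923) and chr10:42545283-42546713 (r = 0.915). The libraries share groups and depth, so these are descriptions. The 5 most like the summed other regions reached r = 0.754 to 0.853, led by chr10:96931619-96934404, and none of them lies in the Gata4 window.

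The rule applied to a window of 80.0 kb around Gata4 on chromosome 14 set 6 of 53 regions apart. How many regions elsewhere pass the rule is not given, so passing it is not shown to be particular to Mef2c and Gata4. The sum of the 6 was 229, 715 and 565 CPM at day 2 and 127, 122 and 141 CPM at day 7. In fibroblasts it was 19.2, 16.4 and 22.3 CPM. The ratio of that sum to the Mef2c sum was 0.667 and 0.722 in day 2 replicate 1 and day 3 replicate 1, the libraries that stood apart, and 1.11 to 2.63 in the other day 2 and day 3 libraries. Both were low in chr14:63858329-63860065, which had 46.7, 409 and 366 CPM at day 2 and 28.5, 431 and 203 CPM at day 3, while their Mef2c sums were not the lowest of their day. At day 7 over day 3, 2 of the 6 were lower, when 0.00691% of all tested regions were. They were chr14:63822054-63822711 (-2.68, SE 0.33, adjusted p = 2.60e-06) and chr14:63819108-63820631 (-2.07, SE 0.36, adjusted p = 0.00308). Unlike the Mef2c set, 2 of the 6, at 63855617 and 63860998, had means at day 21 (20.2 and 10.2 CPM) close to those at day 2 (16.0 and 11.7 CPM), against 3.82 and 2.80 CPM in fibroblasts. These 2 only just passed the rule, with ratios of day 2 to fibroblasts of 4.19 and 4.18, against 11.9 to 57.8 in the rest of the 6. Tbx5, the third factor, was not analysed here.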

How the data were processed

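ATAC-seq libraries of mouse cells sorted from reprogramming cultures and of control fibroblasts were analysed from the count table that the authors deposited, whose values are raw counts per region for 18 libraries in 6 groups of 3. The labels list 36 samples, and those with no column in the table were not analysed here. Bowtie2, Picard, MACS2, edgeR and the build mm9 are named in the submitters' processing notes, with no versions or settings. How reads that match several places were handled is not given in the sources used here. Coordinates are those of the deposited table, and the gene span is approximate. Labels name 2 sequencing cores without assigning libraries to them, so no within-core value could be computed.

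Counts were fitted over all groups with edgeR 4.0.16 in R 4.3.3 (trimmed mean of log ratios, default filter with a minimum count of 10 and a minimum total of 15, robust quasi-likelihood test, 12 residual degrees of freedom, common biological variation 23.8%). P-values were adjusted by the Benjamini-Hochberg method over 144810 regions, and an adjusted p under 0.05 was a call. CPM values are counts divided by the effective library size and multiplied by 1000000. Depth was 2293128 to 23217308 counts per library, so a region at 1 CPM rests on few reads in the shallow libraries. DESeq2 1.42.0, other scalings, no filter, a replicate block, stricter thresholds and the omission of each library were tried. Sums and tables were made with Python 3.11.15, pandas 2.3.3 and numpy 2.4.6. Replicates of a group differed by more than sampling noise in all pairs. Replicate numbers did not in general pair the libraries across groups, although day 2 replicate 1 and day 3 replicate 1 stood apart together.

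All 7 set-apart regions are named, and of the other tested regions up to 6 rises and 6 falls called at day 7 over fibroblasts with the largest change, and the 3 of highest mean level. Outside the locus the 5 regions most like each summed class and the Gata4 regions that pass the rule are named. The members, lists and comparisons were chosen with earlier results of these data known. On simulated day 7 and day 3 counts for 144810 regions, the fit called 82% of the regions changed 8-fold and 78% of those changed 4-fold. It called only 8% at 2-fold and 0% at 1.5-fold, and it called 8 unchanged regions. The changed regions were drawn at random from the tested regions, so these shares are not specific to regions at the level of the set-apart ones. The simulated spread between libraries followed the average trend with level. The set-apart sum at day 3 averaged 247 CPM with an SD of 140 CPM, and the shares do not give the recovery for regions of that spread.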

Additional observations from a re-analysis of the deposited data

How the results depend on the processing

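The fall of the 7 set-apart regions between day 3 and day 21 gave 7 calls under every alternative run. The count at day 7 over day 3, 6 in the report, was 3 with no filter on low counts, 2 without day 2 replicate 1 and day 3 replicate 1, and 2 to 7 when single libraries were left out, with 2 without day 7 replicate 2 and 4 without day 3 replicate 2. Over all tested regions 4 of 1391749 were lower with no filter and 11 of 181081 without that pair of libraries. Without day 7 replicate 2 it was 4 of 145768, and without day 3 replicate 2 it was 6 of 145472. The set-apart count was 7 with DESeq2, with DESeq2-type size factors and with library totals, and in each 11 of all 144810 tested regions were lower. For day 21 over day 7 the count was 0 to 1 over omitted libraries, the 1 being region 6 without day 3 replicate 2 or 3. In each of those runs 9 of all tested regions were lower. Of the regions named by the rule, no estimate that had been called changed sign.

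Calls against fibroblasts among the 33 other regions depended more on the settings. At day 7 the 10 calls became 5 with library totals, 3 with no filter, 6 at an adjusted p under 0.01 and 4 to 10 over omitted libraries (4 without fibroblast replicate 2, 5 without fibroblast replicate 1, 6 without day 7 replicate 1). Over all 144810 tested regions the 22511 higher and 17309 lower became 25859 and 8085 with library totals and 15123 and 10029 at 0.01. They became 19529 and 2185 of 1391749 with no filter, and 20957 and 11007 of 208341 without fibroblast replicate 2. At day 3 the 9 became 5 with DESeq2, 1 with no filter, 2 at 0.01 and 3 to 9 over omitted libraries (3 without fibroblast replicate 1 or 2 or day 3 replicate 3, 4 without fibroblast replicate 3). Over all 144810 tested regions the 19104 higher and 12804 lower became 15293 and 11362 with DESeq2 and 12854 and 7277 at 0.01. They became 14339 and 1300 of 1391749 with no filter, and 16612 and 8301 of 208341 without fibroblast replicate 2. At day 14 the 7 became 4 with DESeq2, 0 with no filter, 3 at 0.01 and 2 to 7 over omitted libraries (2 without fibroblast replicate 2, 3 without fibroblast replicate 1 or day 14 replicate 1, 4 without day 14 replicate 2). Over all 144810 tested regions the 18579 higher and 14047 lower became 15114 and 12324 with DESeq2 and 12128 and 8711 at 0.01. They became 10357 and 2696 of 1391749 with no filter, and 15965 and 10175 of 208341 without fibroblast replicate 2. At day 21 the 6 became 3 with no filter and 3 to 7 over omitted libraries (3 without fibroblast replicate 2 or day 21 replicate 3). Over all 144810 tested regions the 19209 higher and 14614 lower became 14287 and 2007 of 1391749 with no filter. They became 17068 and 9908 of 208341 without fibroblast replicate 2, and 14415 and 9667 of 145823 without day 21 replicate 3. The cause was not tested. Having no filter raises the number of regions adjusted over. An omission lowers the number of libraries and also changes the number of regions adjusted over. That number ran from 143322 (without day 2 replicate 2) to 208341 (without fibroblast replicate 2), against 144810 with all libraries.

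With library totals, the summed set-apart level was 28.4 CPM at day 21, against 12.5 CPM in fibroblasts, and that of the other regions was 188 CPM at day 2, 138 CPM at day 7 and 184 CPM at day 21, against 129 CPM in fibroblasts. With the replicate number as a block, the set-apart counts were 6 at day 7 over day 3 and 7 at day 21 over day 3, and the other regions gave 9, 10, 7 and 6 calls at days 3, 7, 14 and 21 over fibroblasts. These totals equal those without the block, but at day 3 they were 4 higher and 5 lower, against 5 higher and 4 lower without it. Over all 144810 tested regions, calls with the block were 18560 higher and 12160 lower at day 3 and 22115 and 16630 at day 7. They were 18304 and 13664 at day 14 and 18824 and 13850 at day 21. Correlations of deviations between same-numbered libraries had a median of 0.00475 (-0.157 to 0.321, 2 of 45 over 0.1), and 4 of 18 libraries correlated best with their own number. A rule of 5 CPM and 2 times fibroblasts set 9 regions apart, adding 83704279 and 83712342, and one of 20 CPM and 8 times set the same 7 apart.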
